A study of Mus musculus with 4 samples.

Results

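Potassium channel genes were taken from the gene symbols that start with Kcn, go on with letters and end in or contain a number, and comprised 93 of the 32285 genes in the deposited matrices of single nuclei from mouse lung. By symbol, 36 of the 93 encoded voltage-gated pore subunits, 15 inward rectifiers, 14 tandem-pore channels, 12 calcium- or sodium-activated channels with their subunits, 12 auxiliary subunits, and 4 were RNAs read from the opposite strand of a channel gene.

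Potassium channels let potassium leave the cell along its gradient, and so hold the membrane at a negative potential and end electrical excitation. Voltage-gated channels open on depolarisation, calcium-activated channels open when cytosolic calcium rises, inward rectifiers and tandem-pore channels carry the resting current, and auxiliary subunits change the gating or the trafficking of the pore. In the lung these currents set the tone of pulmonary arteries and drive the ion transport of airway and alveolar epithelium. Kcnk3, an acid-sensitive tandem-pore channel of pulmonary artery smooth muscle, is a known gene of heritable pulmonary arterial hypertension.

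Lungs came from 2 WT and 2 VEcad-TRF2DN-Tg (Tg) mice of the C57/BL6J background, whose age is given as 8 to 9 weeks. The Tg mice, kept as heterozygotes, carry TRF2DN, a truncated telomere-binding protein that blocks the normal one, under the VE-cadherin promoter, which is active in endothelial cells (ECs), and the study exposed the mice of both genotypes to chronic hypoxia. Each mouse gave 1 library, so every comparison of genotypes rests on 2 against 2, where an exact two-sided permutation test cannot go below p = 0.333. The comparison asked which channels each kind of lung cell uses and whether endothelial TRF2DN went with a change in any of them.

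A class was assigned to 38459 of 134745 barcodes with at least 1500 UMIs (unique molecular identifiers, counts of single RNA molecules) from marker genes that included no channel gene, and 22 classes with at least 10 nuclei in every mouse were tested. Class names end in "-like" because they rest on those markers and not on the study's annotation. These markers assigned the nuclei, so their levels give no independent support for a name. In some classes marked below, not all listed markers were more than 2 times above the mean of the other classes. Above that limit stood 4 of 8 in alveolar macrophage-like, 5 of 8 in club-like and 6 of 8 in alveolar fibroblast-like nuclei. In monocyte or interstitial macrophage-like nuclei 9 of 11 did, and in the other marked classes all. One class of nuclei led by Lgr6 and Tacr1 lacked most of the markers that had collected it and is named by these genes. Levels are given as CPM, the UMIs of a gene per 1000000 UMIs of a class in a mouse, and the same was computed in droplets without a nucleus (barcodes with 300 to 800 UMIs), which hold free RNA. Free RNA differed between the genotypes, since Scgb1a1, the club cell secretoglobin, took 1.5% and 1.57% of its UMIs for WT against 12.8% and 4.34% for Tg. The WT libraries gave 4984 and 6522 classified nuclei and the Tg libraries 12085 and 14868, with median UMI counts between 2650 and 4184. Barcodes that were not mixed and fitted no class or lineage were 19775 of 26933 and 28012 of 38543 for WT. For Tg they were 8345 of 25269 and 21547 of 44000, and what they hold was not tested. Droplets without a nucleus numbered 7688 and 10371 for WT and 18387 and 2732 for Tg, so they may sample unlike parts of each library.

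Most of what was caught from this gene family came from a handful of its members. Kcnip4, a calcium-binding partner of fast-inactivating voltage-gated channels, gave 61.6% of the members' UMIs in classified nuclei, and the 5 most frequent members together 84.8%. At the other end, 6 members had no UMI in classified nuclei, 20 had fewer than 20, and 49 had at least 100. Counts of nuclear RNA followed gene length: across the 87 members with a UMI, Spearman's rho between UMIs and gene span was 0.561, given as a description over genes. Per kb of gene span the order was different, with 760 UMIs for Kcnj15, 252 for Kcnj2, 230 for Kcnip4, 202 for Kcnj13 and 172 for Kcnk2 over the 4 mice. Kcnk3 gave 413 UMIs in classified nuclei, or 11.1 per kb of its span on chromosome 5 (mm10, 30588170 to 30625271, plus strand). All channel genes together held between 0.202% and 0.338% of the UMIs of classified nuclei in the 4 mice, and between 0.095% and 0.271% in droplets without a nucleus.

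**Figure D1:**
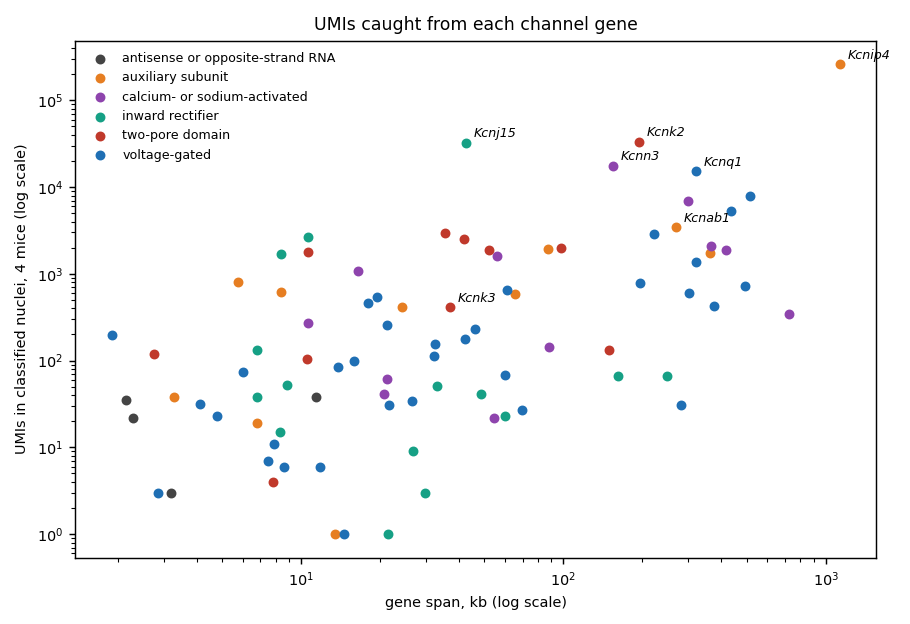
UMIs in classified nuclei of the 4 mice (log scale) against gene span in kb (log scale) for the 87 channel genes with at least 1 UMI, 1 point per gene, coloured by family. Kcnip4 stands highest and has the longest span, while Kcnj15 lies high for its length.

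Of the 93 members, 35 had enough UMIs to enter the comparison of classes, and 18 of these marked 1 class. A gene was said to mark a class when that class had the highest CPM of all 22 in every mouse and exceeded the droplets without a nucleus in every mouse, its mean was at least 2 times that of the next class, it had at least 20 UMIs there, and edgeR's quasi-likelihood test of the class against the others passed. That test set the class against the mean of the other classes, and no test against the next class alone was run. It was read for the class already picked as highest in the same counts, so a pass was close to fixed. Every tested member that met the rule on levels passed. The adjusted p of a mark is therefore given below as a description and not as support. Over all 11691 genes tested, 12.5% met the same definition. Members that passed the filter on low counts through the one class where they were high had to differ, so the share of 18 in 35 carries no weight against that figure. The 18 fell in 9 classes: 6 in neuroendocrine-like, 3 in ciliated-like, 2 each in alveolar fibroblast-like and mesothelial-like, and 1 each in pericyte-like, venous EC-like, club-like, alveolar macrophage-like and monocyte or interstitial macrophage-like nuclei. By family they comprised 8 voltage-gated, 4 tandem-pore, 3 auxiliary, 2 calcium-activated and 1 inward rectifier gene. The other 13 classes, among them general capillary EC-like, aerocyte EC-like and arterial EC-like nuclei, held none of the 18. Over all genes tested, 0.077%, 0.214% and 0.0513% marked these EC classes, in that order. The 9 classes with a mark were each marked by between 0.18% (venous EC-like) and 4.68% (ciliated-like) of all genes.

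**Figure D2:**
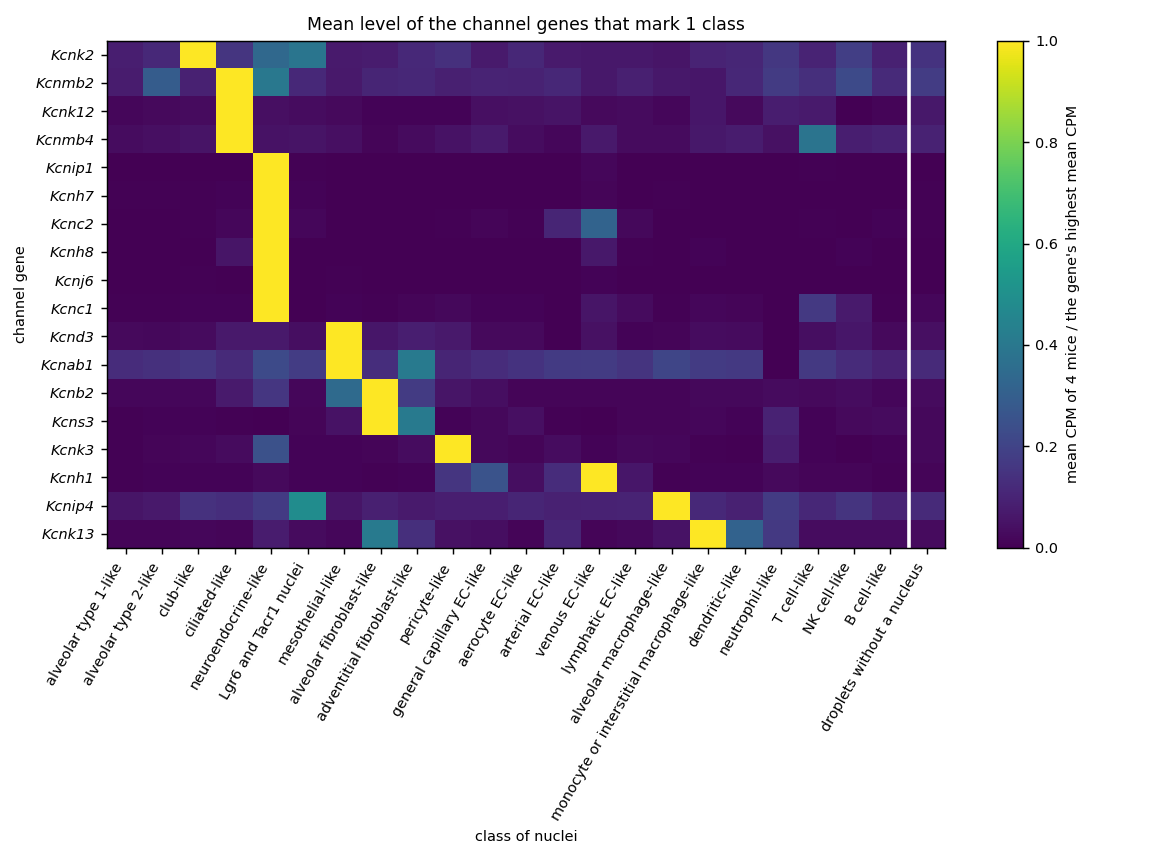
Mean CPM of the 4 mice for the 18 channel genes that mark 1 class (rows) in the 22 classes and in droplets without a nucleus (columns), each row divided by its highest value. Each row is brightest in its own class. A second, lighter cell appears, among others, for Kcnb2 in mesothelial-like and Kcns3 in adventitial fibroblast-like nuclei, for Kcnmb4 in T cell-like nuclei and for Kcnip4 in the Lgr6 and Tacr1 nuclei.

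The 10 listed markers of pericyte-like nuclei, which also assigned them, were all more than 2 times above the mean of the other classes. Kcnk3 marked this class. It stood at 170 and 142 CPM in the WT mice and at 160 and 116 CPM in the Tg mice, a mean of 147 ± 23.8 (SD, n = 4). These values rest on 74 UMIs from 173 pericyte-like nuclei. The next class was neuroendocrine-like, with 20.7 and 54.7 CPM in the WT mice and 34.1 and 35.5 CPM in the Tg mice (mean 36.2 ± 14, 21 UMIs), so pericyte-like nuclei were 4.06 times higher and the mice of the 2 classes did not overlap. Droplets without a nucleus held between 2.16 and 5.64 CPM, and the pericyte-like level was at least 20.6 times that of its own mouse. Against the mean of the other 21 classes the log2 fold change was 5.92 with a standard error of 0.33. As a description, edgeR's adjusted p was 1.14e-28 for this class picked by its level. Several of those classes had hardly any Kcnk3 UMIs, so the fold depends on the prior count of the fit.

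Among the tested classes beyond pericyte-like and neuroendocrine-like nuclei, Kcnk3 was low. Neutrophil-like nuclei had a mean of 11.5 CPM from 3 UMIs, and every other tested class stayed under 5 CPM on average. The general capillary EC-like class had 3.41 ± 0.78 CPM, and the droplets without a nucleus 3.39 ± 1.57 CPM. Kcnk3 exceeded the droplets in all 4 mice in 2 of the 22 classes. Smooth muscle-like nuclei, in which Kcnk3 is best known, were too few to test: they gave 4 Kcnk3 UMIs, 2 in each Tg mouse, a mean over the 4 mice of 40.1 ± 52.1 CPM.

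**Figure D3:**
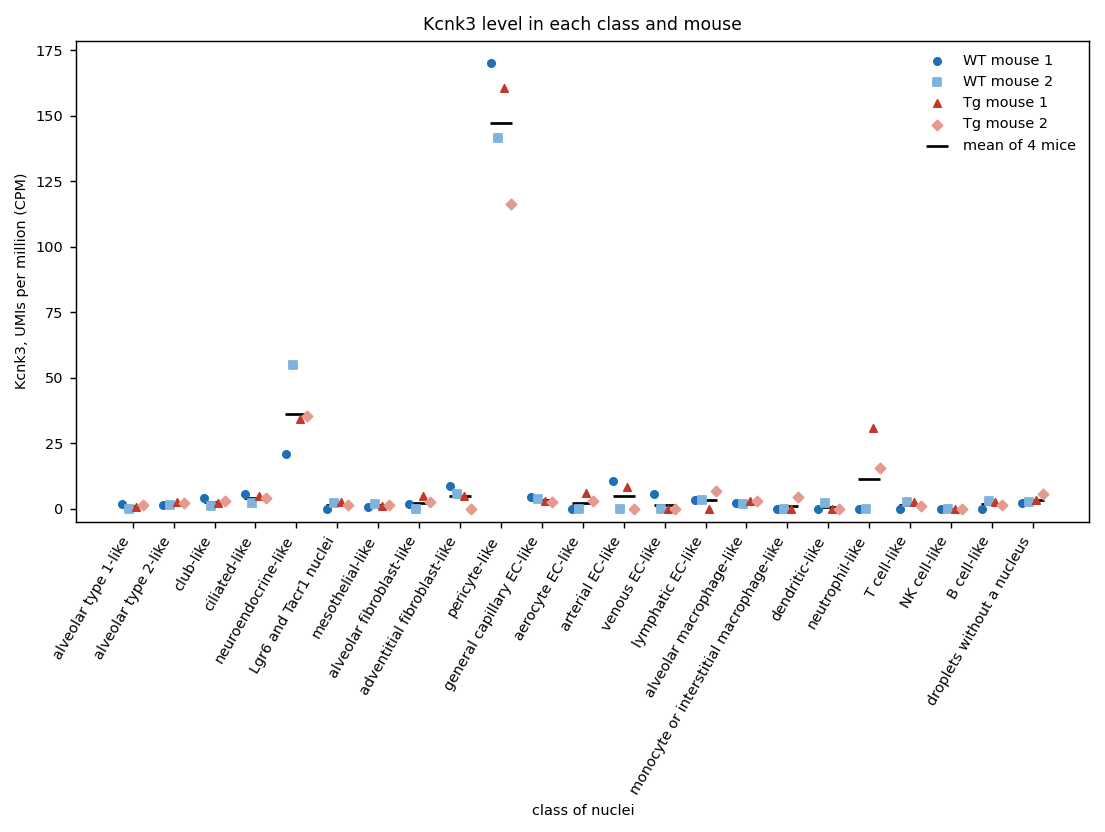
Kcnk3 level in CPM (linear axis) in each tested class and in droplets without a nucleus, 1 point per mouse with the mean of 4 mice as a bar. The 4 pericyte-like values lie between 116 and 170 CPM, neuroendocrine-like values between 20.7 and 54.7 CPM, and the remaining classes lie close to 0 apart from single neutrophil-like values.

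Kcnj12, a strong inward rectifier, met the rule on levels in pericyte-like nuclei with 11.3 and 83.3 CPM in the WT mice and 53.5 and 24.2 CPM in the Tg mice, but with 22 UMIs it fell under the filter and was not tested.

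Fibroblast-like nuclei were marked by a pore and its silent partner. Kcnb2, a delayed rectifier pore, stood at 679 and 528 CPM in the WT mice and at 299 and 434 CPM in the Tg mice in alveolar fibroblast-like nuclei. This was 2.90 times the mean of mesothelial-like nuclei, the next class. Against the mean of the other classes, edgeR's adjusted p was 7.06e-55. Kcns3, a subunit that forms no channel alone but modifies Kcnb pores, was at 160, 117, 98.1 and 103 CPM in the same order of mice. Its edgeR adjusted p, again against the mean of the other classes, was 2.44e-46, and adventitial fibroblast-like nuclei came next. The ratio to that next class was 2.45, and it dropped to 1.92 without WT mouse 1, under the limit of 2. In droplets without a nucleus both genes were lower than in the fibroblast class by at least 27.6 times for Kcnb2 and 28.7 times for Kcns3 in every mouse.

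Mesothelial-like nuclei carried the pore Kcnd3 and the beta subunit Kcnab1. Kcnd3 encodes a fast-inactivating channel of heart and brain and was narrow in its range, with 152 and 149 CPM in the WT mice and 125 and 137 CPM in the Tg mice. No other class came near it, since adventitial fibroblast-like nuclei followed 11.7 times lower. Kcnd3 passed the filter on low counts through mesothelial-like nuclei, so its test is not given as support. Kcnab1, a cytoplasmic subunit that speeds inactivation of Shaker-type channels, had 62.1 and 54.2 CPM in the WT mice and 92.8 and 116 CPM in the Tg mice (edgeR adjusted p = 7.20e-34). Its ratio to adventitial fibroblast-like nuclei was 2.44 over all mice, 1.88 without Tg mouse 2, and the genotype difference is given with the other genotype results. Kcnc4 met the rule on levels in mesothelial-like nuclei with 190 UMIs and between 9.38 and 14.7 CPM, but did not pass the filter.

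Of the 5 endothelial classes only venous EC-like nuclei had a mark, beside 0.18% of all genes tested that marked this class. For the other endothelial classes the share of all genes lay between 0.0513% (arterial EC-like) and 0.393% (lymphatic EC-like). Kcnh1, an ether-à-go-go channel known from brain and from dividing cells, reached 540 and 371 CPM in the WT mice and 306 and 317 CPM in the Tg mice. By the mean, general capillary EC-like nuclei came next with 123, 92.9, 103 and 74.0 CPM in the same order, 3.90 times lower and without overlap. For venous EC-like nuclei against the mean of the other classes, edgeR's adjusted p was 1.40e-48. In WT mouse 2 the closest class was pericyte-like, at 133 CPM.

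Neuroendocrine-like nuclei, the sensory and secretory cells of the airway epithelium, had the most marks, on only 130 nuclei of the 4 mice (13 in WT mouse 2). Over all genes tested, 0.949% marked this class, while ciliated-like nuclei had the highest share, 4.68%. Kcnip1, a calcium-binding partner of fast-inactivating channels, had 2792 and 875 CPM in the WT mice and 1798 and 1985 CPM in the Tg mice. The highest value of any other class in the same mice was found in venous EC-like nuclei of WT mouse 2, at 110 CPM. Kcnip1 passed the filter on low counts through neuroendocrine-like nuclei, so its test is not given as support. Kcnip1 was also among the 10 genes that led this class. The 6 listed markers of the class, which also assigned its nuclei, all stood more than 2 times above the mean of the other classes. None of these markers was among those 10.

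The other neuroendocrine-like marks were pores of the excitable cell. Kcnh7, an erg-type channel, had 465 and 328 CPM in the WT mice and 688 and 490 CPM in the Tg mice. Kcnh8, of the related elk type, had 321, 201, 334 and 293 CPM in that order. The second class for Kcnh8, venous EC-like, had UMIs of it in WT mouse 2 alone, at 75.6 CPM against 201 CPM there. For Kcnh7 the highest value of any other class in a mouse was 15.03 CPM. Both genes passed the filter on low counts through neuroendocrine-like nuclei, so their tests are not given as support.

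Kcnc1 and Kcnc2 encode fast delayed rectifiers that let neurons fire at high rates. Kcnc2 was at 331 and 292 CPM in the WT mice and at 490 and 600 CPM in the Tg mice in neuroendocrine-like nuclei (edgeR adjusted p = 6.62e-42 against the mean of the other classes). Venous EC-like nuclei were second at 208, 96.3, 139 and 98.9 CPM. Droplets without a nucleus held between 0.513 and 5.40 CPM of Kcnc2, so both classes lay above the free RNA in every mouse. Kcnc1 rested on 35 UMIs in neuroendocrine-like nuclei, with 82.7, 36.5, 68.1 and 48.3 CPM, while no other class exceeded 16.9 CPM in a mouse. It passed the filter on low counts through neuroendocrine-like nuclei, so its test is not given as support. Kcnj6, a G protein-gated inward rectifier, rested on 38 UMIs, with 41.4, 91.2, 54.5 and 67.7 CPM. These are 38 of its 67 UMIs in classified nuclei, and it passed the filter through this class, so its test is not given as support. Without Tg mouse 2 it had 17 UMIs, under the minimum of 20.

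Kcnk2, a tandem-pore channel opened by stretch and by lipids, marked club-like nuclei. It was at 768 and 953 CPM in the WT mice and at 962 and 954 CPM in the Tg mice (21171 UMIs, edgeR adjusted p = 7.07e-58). The Lgr6 and Tacr1 nuclei had 301, 354, 378 and 384 CPM in the same order, 2.57 times lower on average. In WT mouse 2 the closest class was neuroendocrine-like, at 638 CPM. When the lead a class needed over the next was doubled, Kcnk2 no longer met the rule. Free RNA was at between 101 and 156 CPM, at least 5.11 times lower than club-like nuclei in the same mouse.

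Ciliated-like nuclei held 3 marks, of which 2 are beta subunits that tune the large-conductance calcium-activated channel. Kcnmb2 had 319 and 258 CPM in the WT mice and 194 and 230 CPM in the Tg mice (edgeR adjusted p = 5.25e-50). Kcnmb4 had 65.4, 118, 77.3 and 84.0 CPM (edgeR adjusted p = 7.36e-48 against the mean of the other classes). For it, T cell-like nuclei came next at 19.8, 28.2, 33.5 and 50.7 CPM. Kcnk12, a tandem-pore subunit that yields little current alone, had between 123 and 141 CPM in the 4 mice and was 12.7 times above the next class. It passed the filter on low counts through ciliated-like nuclei, so its test is not given as support. The pore that both beta subunits bind, Kcnma1, was not a mark of ciliated-like nuclei.

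Alveolar macrophage-like nuclei were marked by Kcnip4, which gave 139190 UMIs there. It stood at 5807 and 10080 CPM in the WT mice and at 8569 and 9679 CPM in the Tg mice, a mean of 8534 ± 1927 CPM (SD, n = 4; edgeR adjusted p = 9.13e-46). The Lgr6 and Tacr1 nuclei came next at 1222 and 6129 CPM in the WT mice and 4057 and 5237 CPM in the Tg mice, 2.05 times lower on average. That ratio lies just above the limit of 2 and was 1.84 without WT mouse 1. The rule was also not met in nuclei with at least 3000 UMIs. Free RNA held much Kcnip4 too, between 455 and 1806 CPM, and alveolar macrophage-like nuclei were at least 5.58 times above it in the same mouse. The droplets were exceeded in all 4 mice in 2 of the 22 classes, in no mouse in 3, and in some mice in the rest. The gene spans 1135 kb and the annotation places 24 other genes within it on the same strand, so reads of these cannot be fully told apart.

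Kcnk13, a tandem-pore channel known from microglia, marked monocyte or interstitial macrophage-like nuclei. It reached 448 and 454 CPM in the WT mice and 226 and 166 CPM in the Tg mice (edgeR adjusted p = 1.45e-31). Alveolar fibroblast-like nuclei followed at 174, 125, 106 and 129 CPM, and dendritic-like nuclei at a mean of 101 CPM. Kcnk13 too no longer met the rule with that lead doubled. Cardiac muscle-like nuclei, present in numbers too small to test, gave 143 Kcnk13 UMIs and a mean of 380 CPM. Kcnh4, an elk-type channel, met the rule on levels in alveolar macrophage-like nuclei (281 UMIs, between 8.03 and 29.0 CPM) and was not tested because of the filter.

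Of the 17 tested members that marked no class, several were the most frequent of their family. Kcnj15, an inward rectifier of kidney and glandular epithelium, was highest in club-like nuclei at a mean of 560 ± 197 CPM and 1.49 times above alveolar type 2-like nuclei. Kcnq1, the pore of the slow delayed rectifier in heart and airway epithelium, had its highest mean in club-like nuclei at 234 ± 69.0 CPM, and the Lgr6 and Tacr1 nuclei lay only 1.18 times lower. Kcnn3, a small-conductance calcium-activated channel, was highest in alveolar macrophage-like nuclei at 635 ± 238 CPM, and lymphatic EC-like nuclei stood at 441 ± 57.8 CPM. Kcnk1, a tandem-pore channel with a very small current, was shared by neuroendocrine-like (50.6 ± 15.4 CPM) and club-like nuclei (49.9 ± 6.91 CPM), which did not differ beyond their spread. Kcnd2, a fast-inactivating channel related to Kcnd3, had 631 and 328 CPM in the WT mice and 729 and 606 CPM in the Tg mice in neuroendocrine-like nuclei, while mesothelial-like nuclei had 168, 671, 186 and 404 CPM and stood higher in WT mouse 2. Kcnj2, the classical strong inward rectifier, was highest in alveolar type 2-like nuclei at 35.9 ± 10.3 CPM, with pericyte-like nuclei 1.44 times lower.

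The limit of 2 times the next class fell between Kcnn2 in pericyte-like nuclei, at 1.62 times, and Kcnip4, at 2.05 times. Kcnk10 and Kcnip3 in neuroendocrine-like nuclei reached 2.02 times each and failed because another class was higher in at least 1 mouse. The same held for Kcnt2, a sodium-activated channel, which had 477 and 53.6 CPM in the WT mice and 301 and 122 CPM in the Tg mice in adventitial fibroblast-like nuclei. Kcnip2, a further partner of fast-inactivating channels, was 3.85 times above the next class in neuroendocrine-like nuclei, but arterial EC-like nuclei were higher in WT mouse 2, at 69.7 against 54.7 CPM. The other tested members without a mark stayed under 2 times the next class, and 58 members did not pass the filter on low counts.

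Grouped into 4 lineages, with mesothelial-like nuclei in none, 23 of 38 members tested were at least 2 times higher in 1 lineage than in the next under the same rule, beside 19% of all 14788 genes tested. Here too, members that passed the filter through the lineage where they were high had to differ. The share of all genes is not given for each lineage, so the split between lineages is not a result about the channels. Mural and fibroblast nuclei had 9 of them: Kcnb2, Kcns3, Kcnk13, Kcnt2, Kcnk3, Kcnma1, Kcnd3, Kcna2 and Kcnh2. Kcna2 is a Shaker-type pore and Kcnh2 the erg channel of cardiac repolarisation, and they stood at 8.38 and 5.42 CPM in that lineage. Epithelial nuclei had 7, of which Kcnj15 (320 CPM against 113 in endothelial nuclei) and Kcnk1 and Kcnn2 marked no single class. Immune nuclei had 5, namely Kcnip4, Kcnn3, Kcnh4, Kcnab2, a beta subunit of Shaker-type channels, and Kcnn4, the intermediate-conductance calcium-activated channel of lymphocytes. Endothelial nuclei had 2, Kcnh1 at 104 CPM and Kcnc2 at 25.5 CPM, each highest in the venous EC-like class among ECs in the plot of class marks. As single classes, Kcnk13 marked monocyte or interstitial macrophage-like, Kcnd3 mesothelial-like and Kcnc2 neuroendocrine-like nuclei, each outside the lineage given here.

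Kcnma1, the pore of the large-conductance calcium-activated channel of smooth muscle, had its highest mean in smooth muscle-like nuclei, with 555 and 0 CPM in the WT mice and 383 and 51.0 CPM in the Tg mice. This class was not tested, and these values come from 22 UMIs. Kcnj3, the G protein-gated inward rectifier of the atrium, had its highest mean in cardiac muscle-like nuclei, at 130 CPM from 22 of its 66 UMIs. Both were chosen for mention after their values were seen.

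Between genotypes, 44 of the 93 members could be tested in at least 1 class, in 318 pairs of class and member. edgeR's test called 15 of these pairs, 8 higher and 7 lower in Tg mice, beside 7.31% of all pairs of class and gene (6.29% higher and 1.02% lower). The 15 pairs came from 5 members in 9 classes, while 13 classes had none and 63 of the 318 pairs had an unadjusted p under 0.05. All 15 pairs had 2 Tg values on one side of both WT values, as did 57.7% of all pairs of class and gene. The median log2 fold change was -0.03 over the members' pairs and 0.01 over the pairs of all genes.

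By definition the marks were highest in their class in the mice of both genotypes. Of the 18 marks, 16 could be tested between genotypes in the class they mark, and 1 was called, Kcnab1 in mesothelial-like nuclei, beside 7.31% of all pairs of class and gene. Kcnk3 in pericyte-like nuclei had a log2 fold change of 0.03 with a standard error of 0.39 (edgeR adjusted p = 0.98), on 15 and 17 UMIs for WT and 18 and 24 for Tg. Kcnk13 in monocyte or interstitial macrophage-like nuclei had both Tg values below both WT values. Its log2 fold change of -1.07 ± 0.31 (SE) did not pass (edgeR adjusted p = 0.0955). Kcnb2 in alveolar fibroblast-like nuclei had -0.68 ± 0.25 (edgeR adjusted p = 0.14). Of the alternatives that kept all 4 mice, each passed only without the filter on low counts (edgeR adjusted p = 0.0469 and 0.0442). DESeq2 gave adjusted p of 0.478 and 0.332. With 1 mouse left out the log2 fold change ran from -1.39 to -0.76 for Kcnk13 and from -0.91 to -0.48 for Kcnb2. Kcnc2 in neuroendocrine-like nuclei had 1.00 ± 0.35 (edgeR adjusted p = 0.307). In the 5 endothelial classes, where the transgene is driven, Kcnj15 was the 1 member called of 14 tested in general capillary EC-like nuclei and of 5 in lymphatic EC-like nuclei, beside 10.5% and 9.17% of all genes tested there. None of the 5 members tested in aerocyte EC-like, 4 in arterial EC-like and 7 in venous EC-like nuclei was called by edgeR or DESeq2, with none at an unadjusted edgeR p under 0.05, beside 4.98%, 2.6% and 9.74% of all genes. The venous EC mark Kcnh1 had an edgeR adjusted p of 0.323. Without WT mouse 2 its log2 fold change was -0.75 (edgeR adjusted p = 0.0411), and Kcnip1 in neuroendocrine-like nuclei went from 0.23 (edgeR adjusted p = 0.957) to 1.34 without WT mouse 1 (0.00796).

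**Figure D4:**
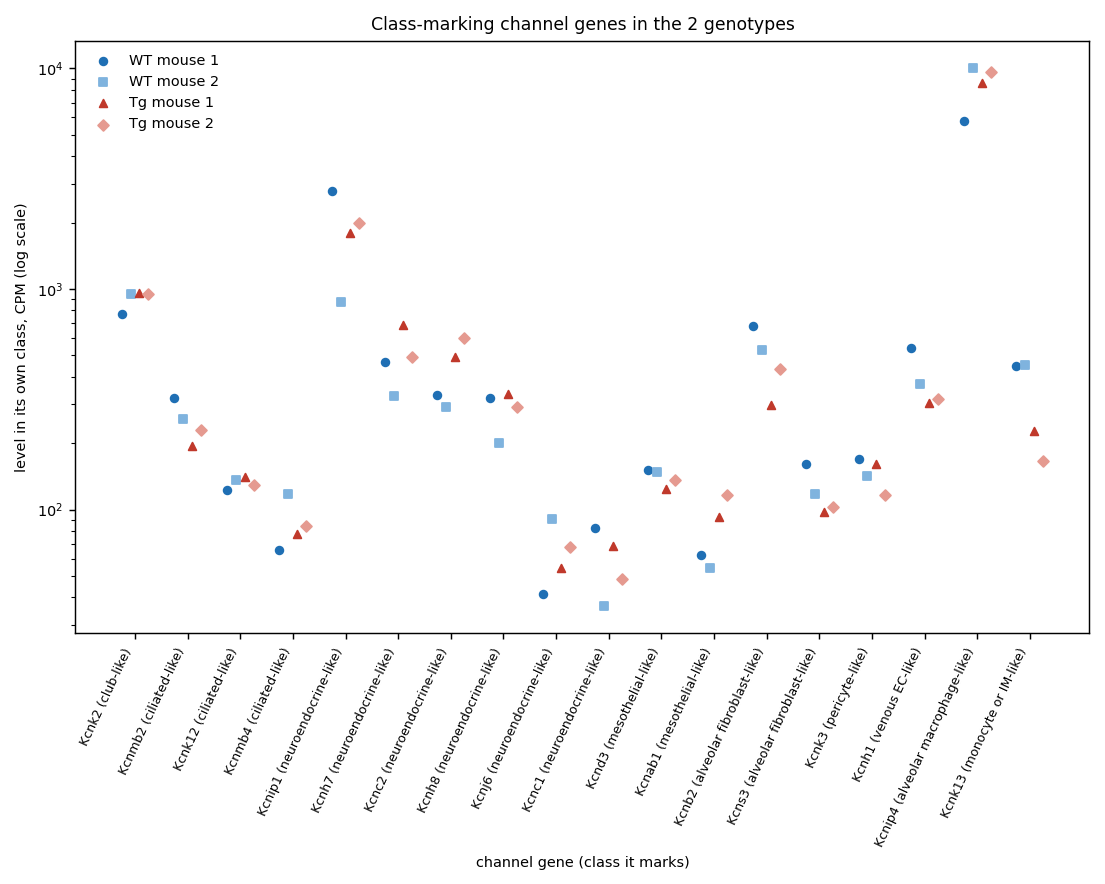
CPM (log scale) of the 18 class-marking channel genes in the class each marks, 1 point per mouse. The genotypes do not overlap for 10 of the 18 genes, beside 57.7% of all pairs of class and gene, and 1 of the 10, Kcnab1, passed edgeR's test. The Tg values of Kcnab1, Kcnc2, Kcnh7 and Kcnk2 lie above both WT values and those of Kcnb2, Kcnd3, Kcnh1, Kcnk13, Kcnmb2 and Kcns3 below them.

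Kcnj15 was lower in Tg mice in all 22 classes by the sign of its fold change and was called in 6, club-like, alveolar macrophage-like, T cell-like, NK cell-like, general capillary EC-like and lymphatic EC-like nuclei. In club-like nuclei it fell from 646 and 798 CPM in the WT mice to 394 and 402 CPM in the Tg mice, or -0.88 ± 0.17 on the log2 scale (SE; edgeR adjusted p = 0.0224). In general capillary EC-like nuclei the values were 159 and 141 CPM against 83.3 and 77.3 CPM (-0.87 ± 0.21, edgeR adjusted p = 0.0288). Lymphatic EC-like nuclei had 181 and 113 CPM against 44.1 and 49.3 CPM (-1.52 ± 0.36, edgeR adjusted p = 0.0217). The WT and Tg mice did not overlap in any of the 6 classes.

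Free RNA moved the same way for Kcnj15. Droplets without a nucleus held 257 and 248 CPM in the WT mice and 82.6 and 123 CPM in the Tg mice, or -1.08 ± 0.24 on the log2 scale (edgeR adjusted p = 0.0260). Kcnj15 exceeded the droplets of the same mouse in all 4 mice in 4 of the 22 classes and in no mouse in 13, and general capillary EC-like and lymphatic EC-like nuclei held between 34.0% and 44.9% free RNA by the estimate from Scgb1a1 and Sftpc. NK cell-like nuclei held 71.1% and 67.8% for WT against 35.8% and 43.0% for Tg by that estimate, and T cell-like nuclei 59.65% and 54.7% against 37.9% and 41.8%. With the free RNA subtracted, the log2 fold change was 0.28 in T cell-like, 0.61 in alveolar macrophage-like and -0.05 in general capillary EC-like nuclei, with edgeR adjusted p of 0.86, 0.325 and 0.966. In club-like nuclei it was -0.91 with an edgeR adjusted p of 0.0598. Each of the 6 calls was lost with at least 1 mouse left out: those in general capillary EC-like, T cell-like, alveolar macrophage-like and club-like nuclei without Tg mouse 1 (edgeR adjusted p between 0.0856 and 0.361), and those in NK cell-like, lymphatic EC-like, T cell-like and general capillary EC-like nuclei without WT mouse 1 (0.0639 to 0.702). The club-like call was also lost without WT mouse 2 (0.0624), and Tg mouse 2 ended the calls in club-like, NK cell-like, alveolar macrophage-like and general capillary EC-like nuclei (0.0687 to 0.595). DESeq2 did not call Kcnj15 in NK cell-like, T cell-like, general capillary EC-like and lymphatic EC-like nuclei (adjusted p between 0.0998 and 0.306), and the lymphatic EC-like call was lost without the filter on low counts (edgeR adjusted p = 0.28). With free RNA subtracted, Kcnj15 could not be tested in NK cell-like and lymphatic EC-like nuclei. In nuclei with at least 3000 UMIs the T cell-like log2 fold change was -0.33 (edgeR adjusted p = 0.794), and the calls in lymphatic EC-like, general capillary EC-like and alveolar macrophage-like nuclei were lost too (0.0669 to 0.157). The T cell-like and alveolar macrophage-like calls also ended when the lead a class needed over the next was doubled (edgeR adjusted p of 0.125 and 0.20), called the doubled margin here.

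**Figure D5:**
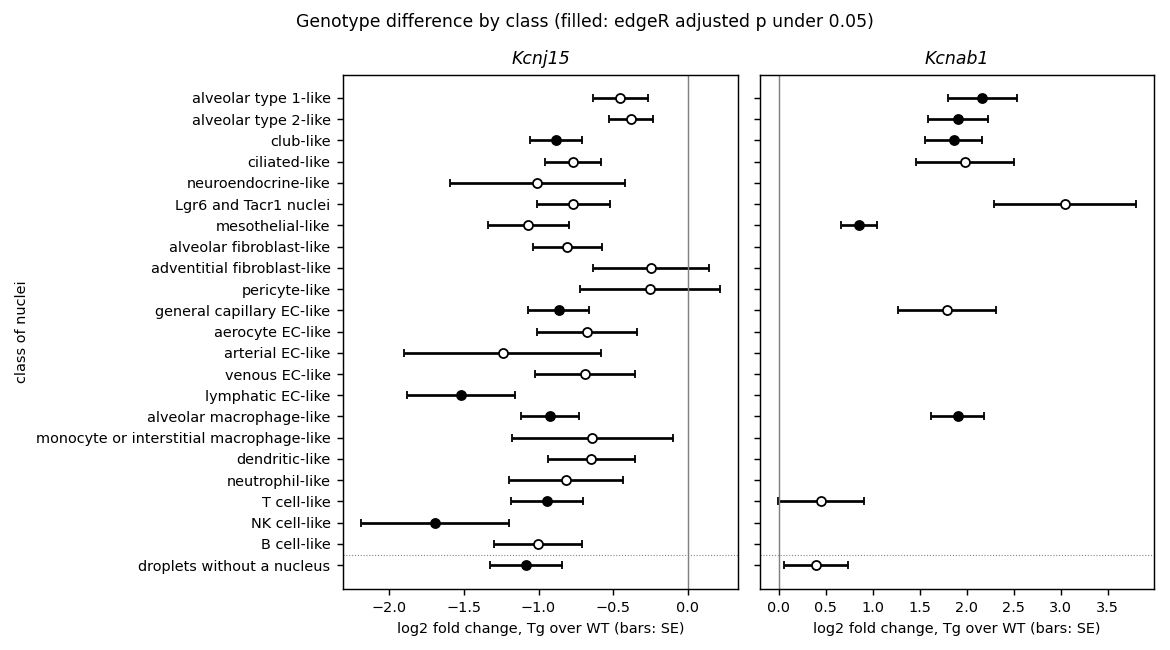
Log2 fold change of Tg over WT for Kcnj15 (left) and Kcnab1 (right) in each class where the gene could be tested and in droplets without a nucleus, with standard errors as bars. Filled points passed edgeR's test at an adjusted p under 0.05. Kcnj15 lies below 0 in all 22 classes and in the droplets, and Kcnab1 above 0 in all 9 classes tested.

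Kcnab1 went the other way and was called in 5 of the 9 classes where it could be tested. In mesothelial-like nuclei, the class it marks, it rose by a log2 fold change of 0.85 ± 0.19 (SE; edgeR adjusted p = 0.0425). In alveolar type 1-like nuclei it was at 3.42 and 4.15 CPM in the WT mice and 19.4 and 13.9 CPM in the Tg mice, or 2.16 ± 0.37 on the log2 scale (edgeR adjusted p = 0.0154). In alveolar type 2-like nuclei it was at 3.98 and 5.38 CPM against 20.7 and 14.8 CPM (1.91 ± 0.32, edgeR adjusted p = 0.0226).

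Club-like nuclei had 4.58 and 6.22 CPM of Kcnab1 in the WT mice and 22.1 and 18.5 CPM in the Tg mice (1.86 ± 0.30, edgeR adjusted p = 0.0118). Alveolar macrophage-like nuclei had 8.03 and 6.45 CPM against 27.3 and 26.4 CPM (1.90 ± 0.28, edgeR adjusted p = 0.0198). All Tg values stood above all WT values in each of these classes. In droplets without a nucleus Kcnab1 was at 9.00 and 8.68 CPM in the WT mice and 7.46 and 13.3 CPM in the Tg mice, which overlapped (log2 fold change 0.39 ± 0.34, edgeR adjusted p = 0.41). Without Tg mouse 1 none of the 5 calls passed, with edgeR adjusted p between 0.0914 and 0.127 and log2 fold changes between 0.96 and 1.86, and the mesothelial-like call was lost with any 1 of the other mice left out as well (0.0635 to 0.131). Without Tg mouse 2 the alveolar macrophage-like call had an edgeR adjusted p of 0.0673. With the free RNA subtracted, only the alveolar type 1-like call passed (edgeR adjusted p = 0.0338), with a log2 fold change of 3.29. The other 4 lay between 0.0585 and 0.149, while their log2 fold changes were 3.30 in alveolar type 2-like, 2.56 in club-like, 2.28 in alveolar macrophage-like and 0.68 in mesothelial-like nuclei. In all but the mesothelial-like class, both WT values of Kcnab1 lay below the droplets of the same mouse before subtraction. A gene that passes the filter on low counts through the genotype where it is high had to differ, so the changes after subtraction carry little weight there. DESeq2 did not call the mesothelial-like pair (adjusted p = 0.0519), and the alveolar macrophage-like call was lost with the doubled margin (edgeR adjusted p = 0.0861).

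Kcnj13, an inward rectifier of ion-transporting epithelia, was higher in Tg mice in all 7 classes tested by the sign of its fold change (log2 fold changes between 0.60 and 2.48) and was called in 2. Alveolar type 2-like nuclei had 7.52 and 7.13 CPM in the WT mice and 20.4 and 14.8 CPM in the Tg mice (log2 fold change 1.27 ± 0.29, edgeR adjusted p = 0.0437). Club-like nuclei had 11.1 and 7.11 CPM against 24.5 and 19.4 CPM (1.27 ± 0.31, edgeR adjusted p = 0.0430). The droplets had a change of the same size for Kcnj13, 1.27, that did not pass (edgeR adjusted p = 0.0540). Without Tg mouse 1 neither class passed (edgeR adjusted p = 0.255 and 0.242), and without WT mouse 2 or Tg mouse 2 the club-like call was lost (0.103 and 0.0822). With the free RNA subtracted the log2 fold changes were 1.21 and 1.27, close to those above, with edgeR adjusted p of 0.135 and 0.14. The club-like call was also lost at 3000 UMIs and with the doubled margin (edgeR adjusted p of 0.0532 and 0.0588).

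Club-like nuclei had the most calls, 5 of 31 members tested, beside 11.5% of all genes tested in that class. Kcnq1 was lower in Tg mice in 17 of 19 classes tested by the sign of its fold change and was called in this class alone. It was at 306 and 279 CPM in the WT mice and 162 and 191 CPM in the Tg mice, or -0.75 ± 0.16 on the log2 scale (edgeR adjusted p = 0.0268). The free RNA had a change in the same direction for Kcnq1, from 107 and 70.0 CPM to 20.1 and 31.8 CPM (-1.58 ± 0.30, edgeR adjusted p = 0.0204). With the free RNA subtracted, Kcnq1 in club-like nuclei was no longer called (edgeR adjusted p = 0.0559), while its log2 fold change stood at -0.75. Kcnma1 was at 1.31 and 0.889 CPM in the WT mice, with 4 UMIs in each, and at 6.45 and 4.46 CPM in the Tg mice, with 40 in each (2.30 ± 0.53, edgeR adjusted p = 0.0361). Few UMIs came from the WT mice, and a gene that passes the filter on low counts through the genotype where it is high had to differ, so this call carries little weight among the 8 higher pairs. The Kcnq1 call was lost without WT mouse 1, Tg mouse 1 or Tg mouse 2 (edgeR adjusted p between 0.0621 and 0.152), and the Kcnma1 call with any mouse left out (0.0507 to 0.233). Kcnma1 was not called by DESeq2 (adjusted p = 0.0759) or by edgeR with the doubled margin (log2 fold change 1.51, adjusted p = 0.141) or with free RNA subtracted (2.76, adjusted p = 0.142). Kcnq1 also lies over genes read from both strands, and whether the counting used strand is not given in the sources used here.

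In droplets without a nucleus, 4 of 39 members tested were called, beside 25.6% of all genes tested there. Kcnk13 fell from 14.4 and 15.4 CPM in the WT mice to 2.38 and 4.62 CPM in the Tg mice (log2 fold change -2.0 ± 0.37, edgeR adjusted p = 0.0201), and Kcnq1 and Kcnj15 fell as given above. Kcne2, a small membrane partner of Kcnq1, rose from 4.14 and 4.34 CPM to 8.65 and 10.3 CPM (1.39 ± 0.34, edgeR adjusted p = 0.0325). The droplets of the Tg mice thus differed from those of the WT mice for 4 channel transcripts, and beyond the subtraction their part in the calls of the classes was not tested. None of the 4 was called with Tg mouse 1 or Tg mouse 2 left out (edgeR adjusted p between 0.205 and 0.231, and between 0.053 and 0.0938), and Kcne2 was not called without WT mouse 1 (0.0564) or by DESeq2 (adjusted p = 0.0721) either.

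For the 15 called pairs, the change in the class against that in all other classes had edgeR adjusted p of 0.248 or more, and 2 of the 15 had an unadjusted p under 0.05. This test was run in the 9 classes with a called pair and not in the other 13, pericyte-like and venous EC-like nuclei among them. Over the 315 pairs of member and class tested, 0 passed edgeR's test and 15 had an unadjusted p under 0.05. Beside this, 0.122% of all pairs of class and gene in the same classes passed. The pair with the lowest adjusted p was Kcnab1 in mesothelial-like nuclei, whose rise was smaller than in the other classes by a log2 difference of -0.83 ± 0.26.

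Of 33 partner genes that handle potassium or assemble with its channels, 15 could be tested between classes and 2 marked one, beside 12.5% of all genes tested. Abcc9, the sulfonylurea receptor of vascular ATP-sensitive channels, marked adventitial fibroblast-like nuclei at a mean of 142 CPM against 25.2 CPM in pericyte-like nuclei. Fxyd6, a small regulator of the sodium pump, marked lymphatic EC-like nuclei at 83.3 CPM. Between genotypes 36 of 224 pairs were called, 34 higher and 2 lower in Tg mice, beside 7.31% of all pairs of class and gene (6.29% higher and 1.02% lower). With free RNA subtracted 11 pairs were called, of which 4 were among the 36. The share of all genes is not given for that setting. The pump regulators Fxyd3, Fxyd5 and Fxyd6 made up 29 of the 36, with log2 fold changes between 1.16 and 4.93. Pairs that passed the filter on low counts through the Tg mice, where they were high, had to differ. The count of 36 in 224 therefore carries little weight beside the share over all genes. Dpp6, a partner of Kcnd channels, accounted for both lower pairs, at -2.20 in general capillary EC-like and -1.55 in mesothelial-like nuclei. With 1 mouse left out these log2 fold changes ran from -2.76 to -1.32 and from -1.84 to -1.24. The first call was lost without WT mouse 1 or Tg mouse 2 and at 3000 UMIs (Dpp6, edgeR adjusted p between 0.0549 and 0.188), and could not be tested with free RNA subtracted. The second was lost without WT mouse 1, Tg mouse 1 or Tg mouse 2 and with free RNA subtracted (0.0506 to 0.0728).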

How the data were processed

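Nuclei from whole lungs were counted with the droplet 3′ assay. The deposited matrices hold UMI counts, made by the authors with Cell Ranger 6.1.1 on mm10 with intronic reads included, 1 per mouse and unfiltered. Barcodes with at least 1500 UMIs were given the class whose marker genes (223 scored of 235) fitted best in a Poisson model with the free RNA of the mouse, if it led the next class and an empty droplet by 5 log units. Nuclei that a mixture of 2 classes from different lineages fitted better by 5 log units were left out as mixed, in place of a doublet caller. They were 6.72% and 9.70% of these barcodes for WT and 15.9% and 15.3% for Tg. Mixtures within a lineage were not looked for. Between 8 and 51 classified barcodes were shared by 2 libraries. The estimate of free RNA is the smaller ratio of Scgb1a1 and Sftpc in a class to the droplets.

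UMI counts were summed per mouse and class and tested with edgeR 4.0.16 (quasi-likelihood test, TMM, minimum count 10, Benjamini-Hochberg adjustment over all genes tested, threshold 0.05), tested on simulated data. Nothing says that replicate numbers pair mice. Genes in each class were compared between genotypes without covariates, and classes with the mouse as a term. The alternatives were DESeq2 1.42.0, no filter, a replicate block, each mouse left out, at least 3000 UMIs, a margin of 10 log units, droplets with 50 to 200 UMIs, and subtracted free RNA. Gene spans come from GENCODE M21.

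Named are Kcnk3, the members that mark a class or lineage or were called between genotypes, and the 2 most frequent of each family. Kcnj12, Kcnc4, Kcnj3, Kcnk10, Kcnip3 and Kcnip2 were named after their values were seen. The members and lists were chosen with earlier results of these data known. A further 5 symbols of the same form and 1 partner gene are not reported here. A p-value between genotypes rests on 2 mice of each genotype. A p-value between classes rests instead on the spread of the sums per mouse and class that the class and mouse terms leave. Intervals for counting error are not given.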

Additional observations from a re-analysis of the deposited data

How the results depend on the processing

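The 18 channel genes that mark 1 class held in number under every alternative (16 to 22) except the limit of 3 times the next class, which left 10. All 10 were among the 18, and 9 of the 18 kept their class under each of the 11 alternatives. The calls between genotypes were less stable. The share of all genes called or marked is given for the main fits alone. A change in these counts can therefore not be read as particular to the channels. Their 15 pairs became 47 without the filter on low counts, with 14 of the 15 among them, and 4 with free RNA subtracted, with 1 of the 15 among them. With 1 mouse left out there were between 2 (without Tg mouse 1) and 55 (without WT mouse 2), holding 2 to 11 of the 15. DESeq2, at least 3000 UMIs and the doubled margin each held 9 of the 15. In droplets without a nucleus, the 4 calls became 11 without the filter, 0 to 10 with 1 mouse left out, and 0 at 50 to 200 UMIs, where 1 member could be tested. The 36 partner pairs became 70 without the filter, 19 in nuclei with at least 3000 UMIs, 11 with free RNA subtracted, and 15 to 61 with 1 mouse left out. The test of class by genotype was run with each mouse left out and at 3000 UMIs and gave 0 of the called pairs by edgeR each time, with 1 to 3 unadjusted p under 0.05.

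The replicate numbers come from the titles and say nothing of a shared litter or day. The correlation of same-numbered mice around their genotype means ran from -0.15 to 0.29 over 22 classes. Fitted with the replicate number as a block, 27 pairs were called within classes, 8 members in the droplets and 48 partner pairs. These counts too stand without the share of all genes called in that fit. Of the 15 pairs, 12 were among the 27, and those of Kcnj15 in T cell-like and alveolar macrophage-like nuclei and of Kcnab1 in alveolar macrophage-like nuclei were not (edgeR adjusted p of 0.0588, 0.117 and 0.0505).

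Signs turned for the following log2 fold changes between genotypes, of which only those of Kcnj15 had been called. With free RNA subtracted, Kcnj15 stood at 0.28 in T cell-like and 0.61 in alveolar macrophage-like nuclei, Kcnip1 at -0.091, Kcnk12 at -0.029 and Kcnk3 at -0.13. With the doubled margin, Kcnh8 stood at -0.069 and Kcnip1 at -0.010, with at least 3000 UMIs Kcnip1 at -0.094, and without the filter Kcnk3 at -0.036. With 1 mouse left out, the ranges crossed 0 for Kcnip1 (-0.41 to 1.34), Kcnip4 (-0.19 to 0.60), Kcnk12 (-0.054 to 0.13), Kcnk2 (-0.023 to 0.26), Kcnk3 (-0.26 to 0.43) and Kcnmb4 (-0.54 to 0.22), each in the class it marks. The causes were not tested. Among the other values of single genes under an alternative, 228 of those between genotypes kept their side of the threshold, 73 lost it and 6 passed it. Few nuclei limit some classes: the neuroendocrine-like class had 13 nuclei in WT mouse 2, and smooth muscle-like nuclei could not be tested.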
